A study of Mus musculus with 4 samples.

Results

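The cells described here are those of the mouse pharyngeal apparatus and heart, at embryonic day (E) 9.5 and E10.5, that carried RNA of both Moxd1 and Shox2. A cell was a member when it held at least 1 unique molecular identifier (UMI, the tag that counts 1 captured RNA molecule) of Moxd1 and at least 1 of Shox2, none of the endothelial gene Cdh5, and fewer than 3 of 6 cardiomyocyte genes (Tnnt2, Myl4, Myl7, Actc1, Ttn, Myh6) at 2 or more UMIs. Cells had to pass a quality filter first, with 1000 or more genes seen and no more than 10% of their UMIs mitochondrial. The rule found 343 members among the 12094 retained cells of the late libraries: 7 of 4052 cells at E9.5 and 336 of 8042 at E10.5. The whole series held 22625 retained cells in 4 libraries.

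Every library came from Swiss Webster embryos of the genotype Mesp1Cre;Rosa26-GFPflox/+, in which Cre from the Mesp1 locus, active in early mesoderm, switches on GFP in all descendants. Cells of pooled embryos were dissociated, and GFP positive, DAPI negative (living) cells were sorted and captured on the 10x Chromium 3' v2 system. There was 1 library per stage, made from the pharyngeal apparatus and heart at both late stages, so a difference between stages cannot be told apart from a difference between libraries and no test over embryos was possible. The retained cells held a median of 15611 UMIs at E10.5 and 17408 at E9.5. The same 41 cell barcodes occurred in both libraries. Mesp1 descent also takes in blood and endothelium, and 1130 of the retained E10.5 cells drew 5% or more of their UMIs from haemoglobin genes, against 6 at E9.5.

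Moxd1 encodes a membrane-bound monooxygenase related to dopamine beta-hydroxylase. Shox2 encodes a homeodomain transcription factor known for its roles in the sinus venosus and its pacemaker, in the palate and in the proximal limb. The pharyngeal arches, part of the dissected tissue, contain mesoderm that forms the muscles of jaw, face and neck under the control of Tcf21, Msc, Tbx1, Lhx2 and the myogenic factors Myf5, Myod1 and Myog, alongside loose mesenchyme marked by Prrx1, Twist1, Pdgfra and collagens. Eya1 encodes a transcriptional coactivator that acts with homeodomain factors such as Six2 in several pharyngeal tissues. On the mm10 build (GRCm38.p6), Moxd1 lies on chromosome 10 from 24223517 to 24302783, and Shox2 on chromosome 3 from 66971723 to 66981771.

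Members made up 0.173% of the retained E9.5 cells (95% Clopper-Pearson interval 0.0695 to 0.356) and 4.18% of those at E10.5 (3.75 to 4.64). In the earlier libraries the same rule met 3 of 7577 cells at E8.0 and 16 of 2954 at E8.25. These shares are set by the rule, and their intervals cover counting error only. Among the cells that met every other condition (called eligible below), 93 of 3139 carried Moxd1 and 221 carried Shox2 at E9.5. If the 2 genes were picked up independently of each other, 6.55 eligible E9.5 cells would carry both, and 7 did. At E10.5, 1106 of 7141 eligible cells carried Moxd1 and 872 carried Shox2, independent detection would give 135 cells with both, and 336 were found, 2.49 times as many. After thinning each cell to 8000 UMIs, 4 eligible E9.5 cells held both, where independence would give 1.96, and 202 did at E10.5, where it would give 62.6. These numbers come from the genes of the rule, pooled over clusters with different shares, and are a description.

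The members at E10.5 were spread around the limits of the rule. The median member held 2 Moxd1 and 2 Shox2 UMIs, with highest values of 12 and 16. Just inside the limit were 56 members with a single UMI of each gene, and 141 had 2 or more of both. Just outside were 770 eligible cells with Moxd1 alone, 459 of them with 1 UMI, and 536 with Shox2 alone, 288 of them with 1 UMI. Free RNA in the droplets can give such single UMIs. In the haemoglobin-rich E10.5 cells, which should lack both genes, 3.98% carried a Moxd1 UMI, 3.54% a Shox2 UMI and 12 of 1130 carried both, at a median of 28547.5 UMIs per cell. Independent detection would give 1.59 haemoglobin-rich cells with both, and the 12 found were 7.53 times as many. Those 12 cells met the rule and are among the 336 members, at a median of 42813.5 UMIs. The median over all members was 13959.5 UMIs, below the 15417 of the other eligible cells. By a doublet score (Scrublet), 46 of the 336 members fell among the 517 highest-scoring E10.5 cells. All 12 haemoglobin-rich members were among them, and the part of free RNA in these 12 cells was not tested.

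Each library was clustered on its own, without Moxd1, Shox2 and the other genes of the rule. At E10.5, 165 of the 336 members (49.1%) fell in 1 of 26 clusters, cluster 10, where they made up 41.8% of the 395 cells (36.9 to 46.8%). Its leading genes were Mlf1, Pcp4, Myog, Barhl2, Eya1, Lrrn1, Hoxd4, Tshz2, Hotairm1 and Hoxa5, among which Myog is a myogenic factor and Hoxd4 and Hoxa5 mark axial position. Within it 52.2% of the cells carried Moxd1 and 76.2% carried Shox2. The product of these shares gives 157 cells with both, close to the 165 members. The other cells with members lay mainly in cluster 3 (57 members, with Irx2, Cldn11, Irx1 and Foxf1 among its leading genes), cluster 9 (35 members, led by Lhx2, Ntng1 and Isl1) and cluster 13 (28 members, led by Rspo3, Pid1, Ptx3 and Wnt5a). Members were 8.76%, 8.22% and 11.8% of the cells of these clusters. A further 11 members lay in the haemoglobin-led cluster 24, whose cells had a median of 41325 UMIs. In clusters 3, 9, 13 and 24 the product of the shares gave 35.0, 24.8, 17.6 and 5.02 cells, fewer than their members.

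Moxd1 and Shox2 thus reached their high values in partly different clusters. In cluster 3 Moxd1 was carried by 50.7% of the cells and Shox2 by 10.6%, and in cluster 9 by 41.3% and 14.1%. Cluster 19, led by Myl2, Csrp3 and other cardiomyocyte genes, had Shox2 in 55.4% and Moxd1 in 1.81% of its cells. None of its cells was eligible, since the rule leaves out cells with several cardiomyocyte genes. At E9.5 the separation ran further. Shox2 was carried by 56.1% of cluster 2 (led by Alcam, Smoc2, Sfrp5 and Mab21l2, with Tbx18 of the sinus venosus among its leading genes) and by 46.2% of cluster 14 (led by Tnni3 and Csrp3), and of the 446 and 143 cells of these clusters 1 and none carried Moxd1. Cluster 14 also had no eligible cell. The highest share with Moxd1 in any E9.5 cluster was 9.87%, in cluster 8. Of the 7 members at E9.5, 2 each lay in clusters 4, 8 and 11 and 1 in cluster 9, and at a coarser resolution of 0.5, 6 of the 7 shared 1 cluster.

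**Figure D1:**
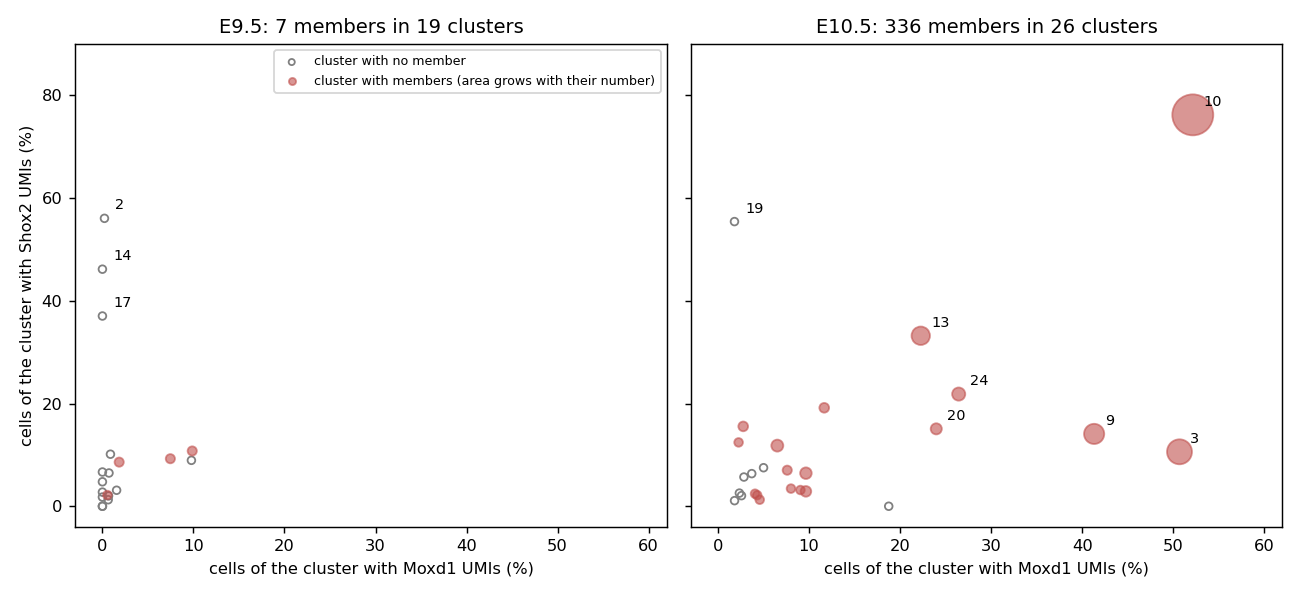
Share of cells with Moxd1 UMIs (horizontal axis, percent) against the share with Shox2 UMIs (vertical axis, percent) in each cluster of the E9.5 and the E10.5 library. Filled circles are clusters that hold members, with an area that grows with their number. Cluster 10 at E10.5 is high on both axes (52.2% and 76.2%), whereas the E9.5 clusters rich in Shox2 lie at the left edge.

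The label that came with these cells called them mesenchyme, and the marker lists went partly against it. None of the 20 general mesenchyme genes tested was called higher in members than in the other eligible cells, and 7 were called lower (the test is described below). In cluster 10, 5 of the 8 listed branchiomeric muscle genes (Tcf21, Myod1, Tbx1 and Ebf3 among them) and 3 of the 7 short-list head and arch mesenchyme genes (Prrx1, Prrx2, Six2) were at 20 CPM or more (CPM, UMIs of a gene scaled to a common library total) and at least 1.5 times their mean over the other clusters, after 10 CPM was added to both. By the same measure 6, 5 and 6 of the 8 muscle genes were raised in the E9.5 clusters 4, 8 and 11, and 2 in cluster 9. This is a description, since the clusters were made from such genes. The cells are therefore called Moxd1 Shox2 cells or members here and are given no cell type name.

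Members were compared with the other eligible cells, with Moxd1-only cells and with Shox2-only cells by edgeR's quasi-likelihood test on counts summed per library, with the library as a block. The E9.5 sum over members held 126190 UMIs against 5656211 at E10.5, so the E10.5 library held almost all of the UMIs behind the estimates, although the 7 E9.5 cells moved the estimate of single genes such as Msc (given below). Of 13799 genes tested against the other eligible cells, 842 (6.1%) had an adjusted p below 0.05, with 358 (2.59%) higher and 484 (3.51%) lower in members. Of these, 514 had no UMI in the E9.5 members. All 842 had the direction of the fit at E10.5, and 632 had it in both libraries. A gene with no UMI in the E9.5 members counted as lower there. For genes called lower without such a UMI this agreement was fixed in advance, so the 632 are no check between libraries. DESeq2 on the same sums called 16 higher and 23 lower (0.646% of the 6040 genes to which it gave an adjusted p), and edgeR without the block called none higher and 1 lower. The calls therefore carry no check between comparable replicates. For that reason the levels below are given per library, as CPM with exact Poisson intervals at E10.5 that cover counting error only. The other eligible cells at E10.5 include 1083 haemoglobin-rich cells, whose UMIs can lower the CPM of other genes there.

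The 3 further genes that came with the label were chosen from these same data, so their levels are a description that supports nothing. Mlf1, myeloid leukaemia factor 1, was at 185 CPM in E10.5 members (174 to 197), 54.8 in the other eligible cells, 42.7 in Moxd1-only and 247 in Shox2-only cells. Pcp4, a small calmodulin-binding protein, was at 234 CPM in members (221 to 247), 29.0 in other eligible, 47.6 in Moxd1-only and 93.1 in Shox2-only cells. Crym, a thyroid hormone-binding crystallin, was at 61.7 CPM in members (55.4 to 68.5), 29.9 in other eligible, 27.7 in Moxd1-only and 113 in Shox2-only cells. Of the 3, Pcp4 alone had its highest E10.5 level in members, and Mlf1 and Crym had theirs in Shox2-only cells. At E9.5 the order was different. The 7 members held 12 UMIs of Crym (95.1 CPM), against 26.1 CPM in Moxd1-only and 10.6 in Shox2-only cells, and 3 of Mlf1 (23.8 CPM), against 22.5 and 18.2. They held 7 UMIs of Pcp4 (55.5 CPM), against 123 CPM in Moxd1-only and 59.04 in Shox2-only cells. By cell, Mlf1 was seen in 214 of the 336 E10.5 members, Pcp4 in 210 and Crym in 134. In haemoglobin-rich cells the shares were 15.1%, 4.87% and 4.87% at the greater depth given above.

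C2cd4a had the largest fitted difference of the 15 genes named as higher. It was at 24.6 CPM in E10.5 members and 2.22 in other eligible cells, an 11.1-fold difference (log2 3.47, interval 3.16 to 3.77), and at 39.6 against 5.61 CPM at E9.5. The edgeR adjusted p was 2.3e-39 and the DESeq2 adjusted p 0.00037. Of the 25 genes named in this comparison, DESeq2 called 15 and did not call 10. Without the block edgeR called 1 of them. Pcp4 followed at 8.07-fold at E10.5, while at E9.5 its levels were 55.5 and 40.9 CPM, with counting intervals that overlap widely. As Pcp4 came with the label, its place among the named genes supports nothing.

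Six2 and Eya1, which act in 1 regulatory network, were both among the 15. Six2 was at 54.3 against 13.1 CPM at E10.5 and 3.03-fold apart at E9.5, on 4 UMIs. Eya1 was at 129 against 27.5 CPM at E10.5, and at 23.8 against 17.7 at E9.5, where the members held 3 UMIs. Sobp, which encodes the sine oculis binding protein, was at 38.0 against 9.38 CPM at E10.5 and 47.5 against 8.10 at E9.5. Six2, Eya1 and Sobp thus had similar folds at E10.5 (4.16, 4.71 and 4.05), and at E9.5 the counting interval of Sobp (5.87-fold) lay above 0 on the log2 scale while those of Six2 and Eya1 included it.

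The remaining genes named as higher included several membrane and secreted proteins. Lrrn1, a leucine-rich repeat membrane protein, was 4.68-fold higher at E10.5, at 73.0 CPM in members. The RNA-binding protein gene Celf2 was 4.24-fold higher, at 177 CPM, and Kcne1l, a potassium channel subunit gene, 4.24-fold higher, at 96.9 CPM. Ntng1 (netrin-G1, an axon guidance ligand) stood at 92.5 CPM against 24.6, Pgf (placental growth factor) at 87.5 against 25.0 and Igfbp3 (an IGF-binding protein) at 70.9 against 24.5. Gas2 stood at 62.2 CPM against 19.6, Chrdl1 (a chordin-like BMP antagonist) at 31.1 against 8.96 and Cd40 (a receptor of the TNF family) at 29.9 against 9.55. The naming rule required the same direction in both libraries, and at E9.5 these 9 were higher in members by between 1.31-fold for Ntng1 and 7.43-fold for Gas2.

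**Figure D2:**
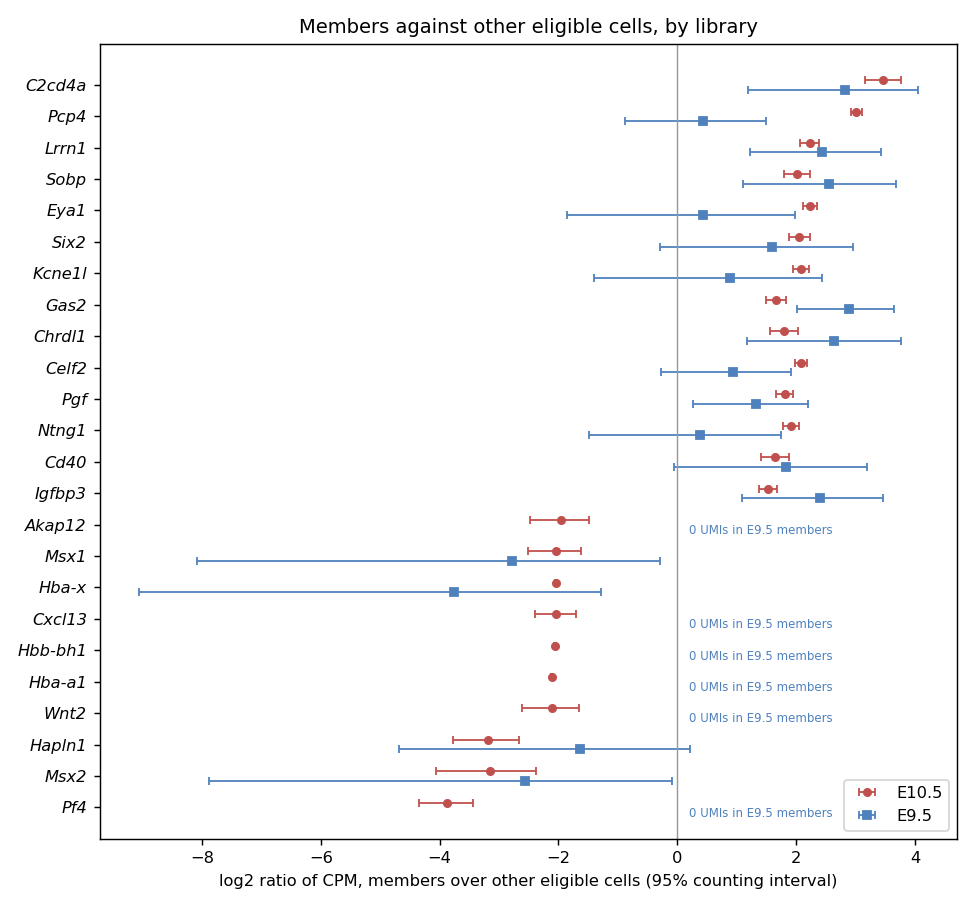
log2 ratio of CPM in members over other eligible cells for 14 of the 15 genes named as higher and the 10 named as lower, at E10.5 (circles) and E9.5 (squares), with 95% counting intervals; the E9.5 sum comes from 7 cells. The E10.5 intervals are narrow, and several E9.5 intervals, such as those of Pcp4, Eya1 and Ntng1, include 0.

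The 10 genes named as lower fell into a blood group and a mesoderm group. Pf4, a chemokine of megakaryocytes and macrophages, was at 7.43 CPM in E10.5 members and 108 in other eligible cells, with no UMI in E9.5 members. The haemoglobin genes Hba-x, Hbb-bh1 and Hba-a1 were near 4-fold lower at E10.5. Haemoglobin genes took 2.89% of the UMIs of members and 11.7% of those of other eligible cells, which hold 1083 of the 1130 haemoglobin-rich cells at E10.5. Without haemoglobin-rich cells on either side the fitted log2 difference was 0.0191 for Hba-a1 and 0.0797 for Hba-x, so these changed sign, and neither was called. Hbb-bh1, at -0.0444, was no longer called either, and Pf4, at -4.32, still was. The BMP-responsive homeobox genes Msx1 (7.60 against 31.4 CPM) and Msx2 (2.30 against 20.4), the link protein gene Hapln1 (4.95 against 45.2), the lung mesenchyme ligand Wnt2 (6.72 against 29.1), Cxcl13 (12.7 against 52.3) and the scaffold protein gene Akap12 (6.36 against 24.8) were lower at E10.5. The E9.5 members held 0 to 2 UMIs of each.

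The branchiomeric muscle list had 5 of its 8 genes called higher against the other eligible cells and none lower, with a median log2 difference of 1.11 beside -0.03 over all genes tested. Tcf21 was at 155 CPM against 59.8 at E10.5 and at 143 against 73.0 at E9.5, and Tbx1 was at 117 against 52.4 and at 277 against 94.8. Both were higher in members at both stages. Myod1, a determination factor of skeletal muscle, was at 17.3 against 2.42 CPM at E10.5, 7.17-fold, and Myf5 at 15.6 against 6.47, and neither had a UMI in the 7 E9.5 members. By cell, Myod1 was seen in 48 of the 336 E10.5 members and Myf5 in 52, beside 269 for Tcf21 and 244 for Tbx1. The genes of the list that were not called were Msc (20.3 against 19.8 CPM at E10.5), Lhx2 (9.55 against 13.2) and Ebf3 (24.1 against 18.4). Msc differed between the stages, at 166 CPM in E9.5 members against 24.1 in other eligible cells there.

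The 24 head and arch mesenchyme genes tested went in both directions, with 7 called higher and 9 lower and a median of -0.76. Those called higher included Eya1, Six2, Meox1, Lhx6 and Osr2. Meox1, a homeobox gene of somites and arch mesoderm, was at 57.6 against 17.4 CPM at E10.5 with no UMI in E9.5 members. Those called lower included Alx1, Dlx2, Dlx5, Foxd1, Msx1, Msx2, Twist1 and Twist2, for example Twist1 at 26.0 against 65.4 CPM and Foxd1 at 9.02 against 29.5. Prrx1 (126 against 102 CPM) and Prrx2 (163 against 118), both broad mesenchyme markers, were present in E10.5 members and passed no test. At E9.5 Prrx2 was at 341 against 311 CPM and Prrx1 at 15.8 against 91.4. Of the 20 general mesenchyme genes Dcn, Lum, Pdgfra, Postn, Sparc, Tnc and Vim were called lower, with a median of -0.62 for the list. Pdgfra, a receptor of most mesenchyme, was at 23.5 CPM in E10.5 members (19.7 to 27.9) against 43.8 in other eligible cells.

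Of 14 genes of the posterior second heart field and lung mesenchyme, 1 was called higher and 7 lower (Foxf1, Gata4, Gata6, Osr1, Tbx4, Tbx5, Wnt2). The sinus venosus and pacemaker list, in which Shox2 itself is a known member, had 2 genes called higher, Isl1 among them, and Tbx18 and Tbx3 lower among 9 tested. Hcn4, the pacemaker channel gene, had no UMI in the 5656211 of the E10.5 members, for which the exact Poisson upper limit is 0.652 CPM. It stood at 0.285 CPM in other eligible cells, so no difference was detectable at this depth. Tbx18 was at 11.7 CPM against 23.0. In the anterior second heart field list, Isl1, Tbx1 and Fgf10 were called higher and Hand2 and Nkx2-5 lower among 9 tested. Isl1, a LIM homeobox gene of both heart field and arch muscle progenitors, was at 140 against 54.3 CPM at E10.5 and 151 against 86.1 at E9.5. Of 12 limb and body wall genes, Fgf10 was called higher and Hand2, Lhx9, Tbx4 and Tbx5 lower.

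The Hox genes, whose combination marks axial position, went in both directions. Among 15 tested, 5 were called higher, Hoxb5, Hoxb6, Hoxd3 and Hoxd4 among them, and Hoxc4 and Hoxc5 were called lower, with a median of 0.34. Hoxb5 was at 71.2 CPM against 20.8 at E10.5, Hoxd4 at 24.2 against 8.45, and Hoxb4, the highest of the list at 135 against 76.7 CPM, passed no test. At E9.5 the picture was different: 16 of the 17 listed Hox genes had no UMI in the 7 members, and Hoxb2 had 2, while the list summed to 373 CPM in the other eligible E9.5 cells. The E9.5 members were thus without most Hox transcripts at the depth of 7 cells.

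The signalling lists are given beside the 6.1% of all genes tested that were called. Fgf9 and Fgf10 were the called genes of 14 in the FGF list, both higher, and Fgf9 was at 26.5 against 3.74 CPM at E10.5, 7.09-fold, with none at E9.5. Of 17 BMP pathway genes, the antagonist Grem1 was called higher (18.2 against 7.82 CPM) and Bambi, Bmp2, Msx1 and Msx2 lower. Of 19 Wnt pathway genes none was called higher and Dkk1, Nkd1, Sfrp1, Wnt11 and Wnt2 were called lower. In the retinoic acid list of 12, Crabp2 and Rdh10 were called higher and Cyp26a1 lower. Rdh10, which makes the precursor of retinoic acid, was at 54.5 against 18.3 CPM at E10.5 with none at E9.5. Of 10 Hedgehog response genes, Boc, a co-receptor, was called (higher, 19.5 against 7.35 CPM). Nnat and Pcp4, the latter a gene that came with the label, were the called genes of 9 in the calmodulin and calcium binding list. Of 8 skeletogenic genes the tendon factor Scx was called higher (25.1 against 11.6 CPM) and Pax9, Runx2, Sox6 and Sox9 lower.

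Markers of other cell types that the sort or dissection could add mostly summed to less in members. Cells with Cdh5 or several cardiomyocyte genes had been left out of both sides by the rule. The 8 endothelial genes summed to 38.9 CPM in E10.5 members and 65.2 in other eligible cells, and the 9 cardiomyocyte genes to 42.8 and 94.8 CPM. The 6 macrophage genes summed to 35.9 and 74.1 CPM and the 5 epithelial genes to 21.4 and 36.6. The 6 neural crest genes summed to 4.77 CPM in members, with Foxd3, Sox10, Tfap2a and Tfap2b at 0 in members. The sums ran the other way for neural and epicardial genes: the 5 neural genes summed to 81.7 against 49.9 CPM, and the 9 proepicardial and epicardial genes to 219 against 191, of which Tcf21 gave 155. Without haemoglobin-rich cells the E10.5 members held 5146656 of their 5656211 UMIs. The other eligible cells held 88756910 of 119251738. The sums were not redone on that base, so the direction of the smaller differences, as in the epicardial list, is not settled. In that last list Tcf21 was called higher and 7 of the other 8 lower, and of 6 genes of the septum transversum and somatic mesoderm 5 were called lower (Epha3, Gata4, Hand1, Msx1, Msx2). The part of other cell types' RNA in these results was not tested.

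Against the 770 and 86 Moxd1-only cells of E10.5 and E9.5, 146 of 10547 genes tested were called (1.38%), of which 88 were higher in members (0.834%) and 58 lower (0.55%). Of the 146, 104 had the same direction in both libraries, but 54 had no UMI in the E9.5 members and so counted as lower there. DESeq2 called 1 (0.00948%), Acta2, which was lower. With doublets removed 1.08% were called higher and 1.04% lower, and with cells thinned to 8000 UMIs 0.17% and 0.196%. The 6 genes named as higher included C2cd4a (24.6 against 3.19 CPM at E10.5), Mlf1 (185 against 42.7), Celf2 (177 against 62.1) and Lrrn1 (73.0 against 31.4). Of these, Mlf1 came with the label, so its call supports nothing. The 6 named as lower were the smooth muscle actin gene Acta2 (13.8 against 142 CPM), Hapln1 (4.95 against 28.1), the foregut mesenchyme factors Foxf1 (39.1 against 93.3) and Foxf2 (18.9 against 68.3), Dpysl3 (16.3 against 47.8) and the cartilage factor Sox9 (18.6 against 56.3). Among the lists, 4 Hox genes were called higher, Hoxa5, Hoxb5 and Hoxd4 among them, and none lower. At E9.5 the Hox list ran the other way, with a sum of 15.8 CPM in members and 284 in Moxd1-only cells. There 16 of its 17 genes had no UMI in members. Of 8 branchiomeric muscle genes 3 were called higher (Myod1 and Tbx1 among them), and of 13 posterior second heart field and lung genes 7 were called lower. Of 17 head and arch mesenchyme genes tested here, 4 were called higher, Eya1 and Meox1 among them, and Foxd1, Msx2 and Twist2 were lower. Isl1 was at 140 CPM in members and 130 in Moxd1-only cells, a difference that passed no test.

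Against the 536 and 214 Shox2-only cells, 233 of 11007 genes tested were called (2.12%), with 91 higher (0.827%) and 142 lower (1.29%) in members. Of the 233, 202 had the same direction in both libraries, but 92 had no UMI in the E9.5 members and so counted as lower there. DESeq2 called 2 higher and 9 lower (0.169% of the genes it could test). Of the 12 genes named below, it called 2 and did not call 10. The 6 named as higher were Ntng1 (92.5 against 19.5 CPM at E10.5), C2cd4a (24.6 against 7.53), Msc (20.3 against 10.47), Irx1 (27.4 against 10.0), Isl1 (140 against 38.8) and Lrrn1 (73.0 against 29.2). The fitted log2 difference of Msc was 1.46, between 0.96 at E10.5 and 2.79 at E9.5 (166 against 24.07 CPM, on 21 UMIs in members). The 6 named as lower were Hapln1 (4.95 against 45.9 CPM), Wnt2 (6.72 against 39.7), Msx1 (7.60 against 36.0), the peripheral myelin gene Pmp22 (12.7 against 57.7) and the heart and gut factors Gata5 (4.95 against 21.3) and Gata6 (11.5 against 46.8). In the list of 8 branchiomeric muscle genes 5 were called higher (Msc, Myod1, Tbx1 and Tcf21 among them), in that of septum transversum and somatic mesoderm 5 of 6 were called lower (Bmp4, Epha3, Gata4, Msx1, Msx2), and of 8 proepicardial and epicardial genes 5 were called lower (Krt19, Krt8, Tbx18, Upk3b, Wt1). Of 15 Hox genes none was called higher and 2 lower (Hoxc4, Hoxc5).

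Set side by side, the kinds of cells differed gene by gene. Isl1 stood at 140 CPM in E10.5 members, 130 in Moxd1-only and 38.8 in Shox2-only cells, and Hoxa5 ran the other way, at 52.7 CPM in members, 20.2 in Moxd1-only and 78.3 in Shox2-only cells. Eya1 (129, 50.6 and 66.7 CPM) and Pcp4 were higher in E10.5 members than in either, with a call in both comparisons. Pcp4 came with the label, so its calls support nothing. At E9.5 neither Eya1 nor Pcp4 was highest in members. Eya1 stood at 23.8 CPM there against 30.4 in Moxd1-only cells, and Pcp4 at the levels given above. The 3 comparisons share the same member cells, so these calls are not independent of each other.

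Levels also differed among members by the number of UMIs that placed them there. From the 56 members with 1 UMI of each gene, through the 139 with 1 UMI of one gene and more of the other, to the 141 with 2 or more of both, the E10.5 level of Eya1 was 106, 111 and 152 CPM, and that of Tcf21 was 112, 139.9 and 182. Tbx1 stood at 72.0, 123 and 129 CPM, and Myod1 at 3.08, 14.0 and 25.2. Foxf1 was at 73.0 CPM in members with 1 UMI of each gene, and at 30.0 and 33.6 in the next tiers. Crym (66.8, 70.2 and 53.1 CPM), Prrx1 (97.7, 154 and 115) and Hoxa5 (42.1, 69.2 and 43.5) were highest in the middle tier. Mlf1 was 70.9 CPM in the first tier and 220 and 201 in the others. Median depth of the tiers was 14312, 13061 and 14869 UMIs. The tiers are cut on the genes of the rule within 1 library, so these values are a description, and the difference between tiers was not tested.

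**Figure D3:**
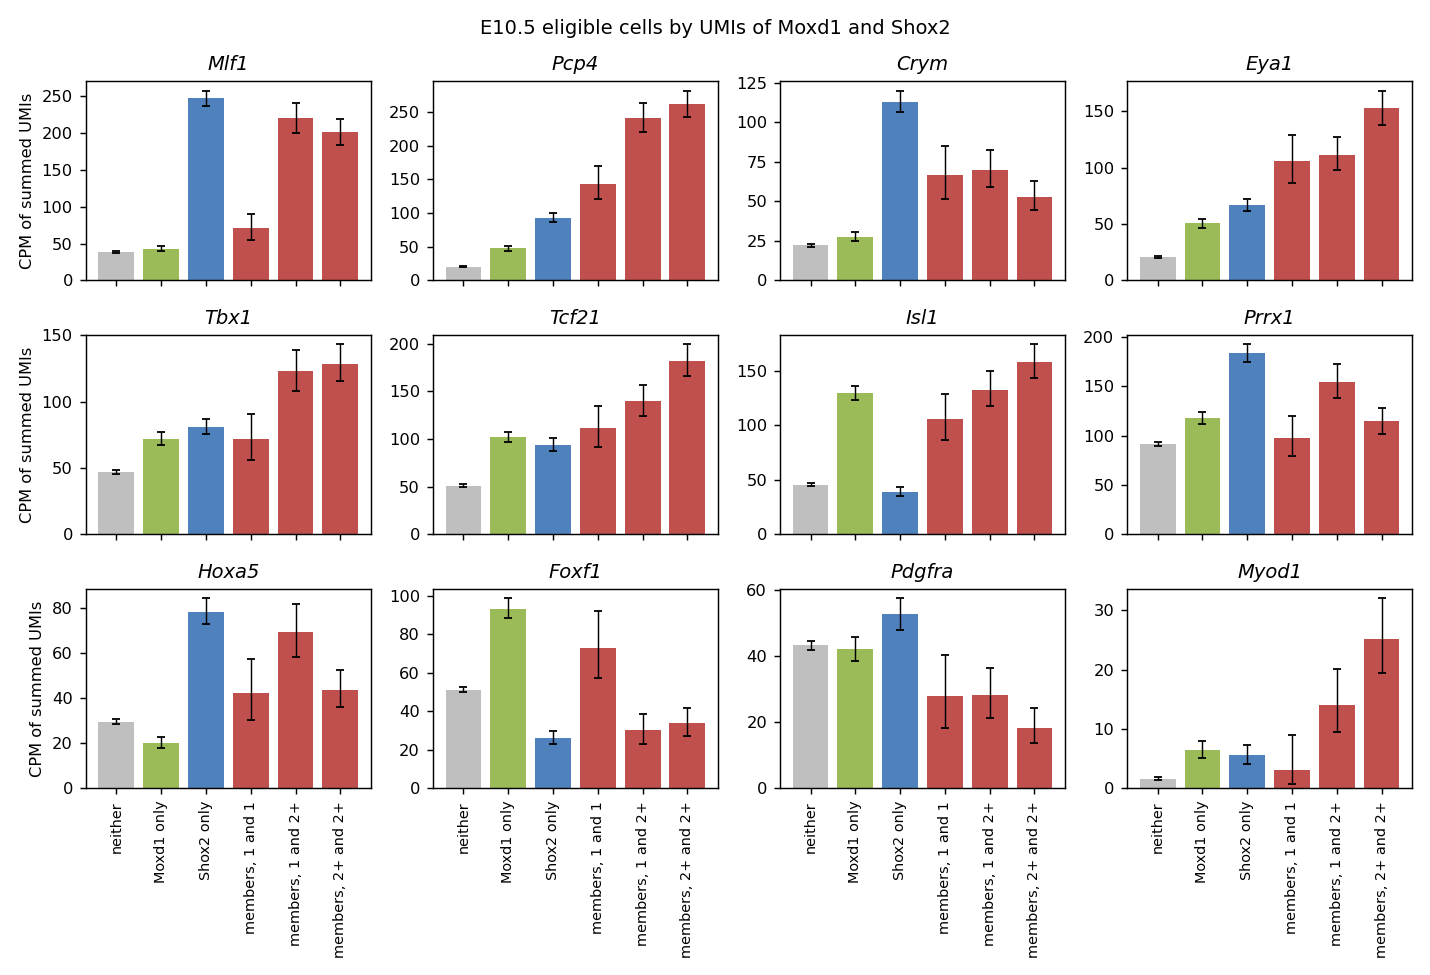
Level (CPM of summed UMIs, vertical axes) of 12 genes in E10.5 eligible cells with neither gene, with Moxd1 or Shox2 alone, and in members with 1 UMI of each, 1 of one and 2 or more of the other, and 2 or more of both, with 95% Poisson intervals. Eya1, Tcf21 and Myod1 are highest in the last bar, Isl1 is as high with Moxd1 alone as in members with 1 UMI of each, and Mlf1, Crym and Hoxa5 are high with Shox2 alone.

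The 165 members inside cluster 10 differed from the 171 outside it in most of the genes described. Inside the cluster Mlf1 was at 308 CPM and outside at 91.2, Pcp4 at 337 and 155, Hoxd4 at 48.5 and 5.62, Myog at 27.7 and 4.69, Eya1 at 175 and 94.3, and Tbx1 at 146 and 94.3. Outside the cluster Foxf1 was at 58.7 CPM against 13.4 inside, Cldn11 at 58.4 against 12.6, and Alx1 at 27.8 against 9.37. The 230 cells of cluster 10 that were not members had Mlf1 at 431 CPM, Hoxd4 at 59.4, Myog at 84.1 and Isl1 at 58.3, beside 134 for Isl1 in the members of the cluster. Median depths were 14012 UMIs in members inside, 13922 in members outside and 12220.5 in the other cells of the cluster. As the clusters were made from these genes, these values are a description and no test was run.

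Clustered alone, the 336 E10.5 members fell into 6 subgroups of 85, 85, 60, 49, 45 and 12 cells. Myogenic genes were seen in subgroups 1, 2 and 3, with Myod1 at 22.8, 24.7 and 29.5 CPM, Myog at 28.0, 17.6 and 28.5, Myf5 at 42.5, 12.4 and 26.4 and Isl1 at 210, 169 and 216. These levels came from a minority of the cells for the 3 myogenic genes. Myod1 was seen in 12, 17 and 12 cells, Myog in 14, 7 and 14, and Myf5 in 20, 13 and 16. In subgroup 2, 12 of the 27 Myog UMIs lay in 1 cell. Subgroups 1 and 3 differed in cell cycle genes. The mitotic genes Top2a and Cenpf were at 25.9 and 19.7 CPM in subgroup 1 and at 432 and 408 CPM in subgroup 3, which also had the most Hoxd4 (62.2 CPM). Of the 85, 85 and 60 cells of subgroups 1, 2 and 3, 49, 46 and 48 lay in cluster 10. Subgroup 4, with 22 of its 49 cells in cluster 13, had the highest Rspo3 (181 CPM), Col1a1 (121 CPM), Alx1 (52.8 CPM) and Crym (148 CPM) of the 6, and Myf5 and Myog at 1.51 CPM each. Mlf1 and Pcp4 were at 286 and 342 CPM there, beside 240 and 342 in subgroup 1 and 249.96 and 253 in subgroup 3, so these label genes were high in subgroups with and without myogenic genes.

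In subgroups 2, 5 and 6, genes of other cell types came from few cells or went with high doublet scores. Subgroup 2 had the most Pcna, a gene of DNA replication (191 CPM, against 63.3 to 90.3 in the others), and had Neurod1, Tcf15 and Tlx2 among its leading genes. Of its 85 cells, 2 held all 53 Neurod1 UMIs and 11 all 63 Tcf15 UMIs. Subgroup 5 (45 cells, median 19222 UMIs) was led by Plac8 and the macrophage genes Tyrobp and Lyz2. A single cell held all 81 Tyrobp UMIs, and 2 cells the 41 of Lyz2, and the subgroup had the highest Foxf1 (79.2 CPM) and high Top2a (495 CPM). Its doublet scores were among the highest of the library in 13 cells, against 2, 12, 2 and 5 in subgroups 1 to 4. Subgroup 6 was the 12 haemoglobin-rich cells, with Hba-x at 46274 CPM and all 12 among the highest doublet scores. The part of doublets in the other subgroups was not tested.

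**Figure D4:**
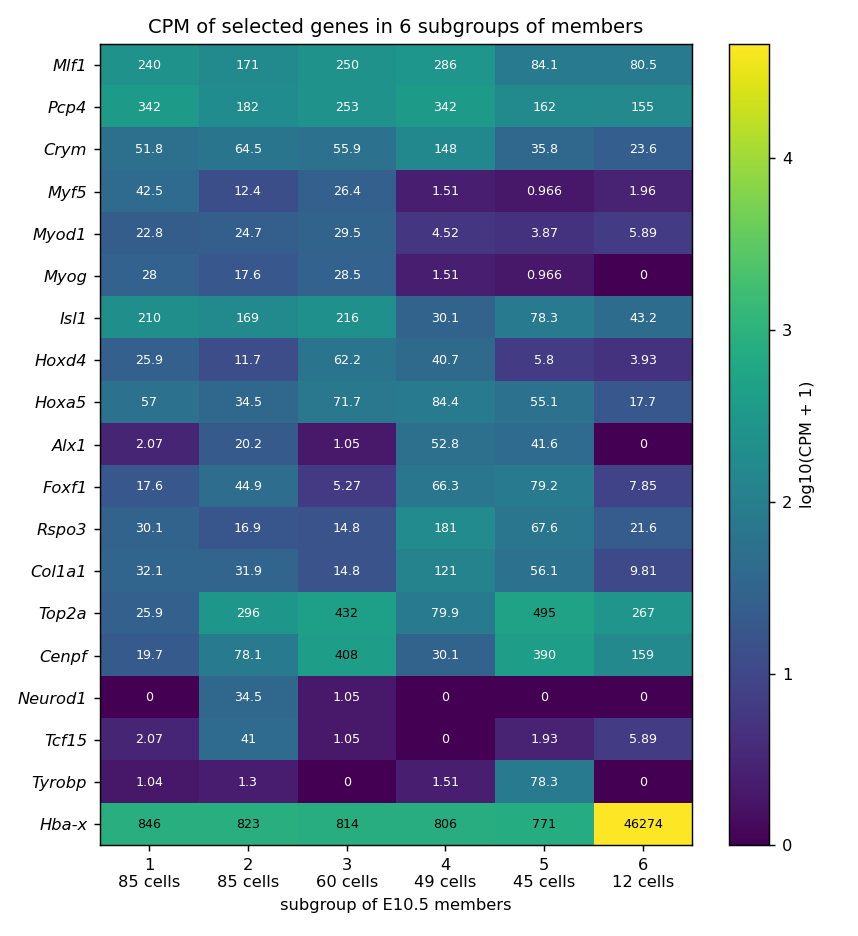
CPM of 19 genes (rows) in the 6 subgroups of E10.5 members (columns), coloured by log10(CPM + 1). Myf5, Myog and Isl1 are highest in subgroups 1 and 3, with lower levels in subgroup 2, Rspo3 and Col1a1 in subgroup 4, and Hba-x reaches 46274 CPM in subgroup 6.

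At E9.5 the 7 members were too few to cluster and were read one by one. Their Moxd1 UMIs, from the deepest cell (22916 UMIs) to the shallowest (13565), were 1, 6, 1, 1, 1, 4 and 1, and their Shox2 UMIs 2, 2, 2, 2, 1, 2 and 1. Tbx1 was present in 5, with 7, 4, 9, 9 and 6 UMIs in the 5 deepest, and Msc in 5, with 3, 2, 8, 1 and 7. C2cd4a came from the 2 cells of cluster 8 with the most Moxd1 (3 and 2 UMIs). No member at E9.5 had a UMI of Myf5, Myod1, Myog, Pdgfra or Hoxa5. In the other eligible E9.5 cells Tbx1 was seen in 46.0%, Msc in 19.0%, Myf5 in 7.47%, Myod1 in 0.383% and Myog in 0.0319%. A count of 0 among 7 cells has a Clopper-Pearson upper limit of 41.0%, so no difference in the myogenic factors was detectable with 7 cells.

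Between the stages, 2811 of 10091 genes with 20 or more UMIs in the members' sums together (27.9%) were at least 2-fold higher at E10.5 and 955 (9.46%) at least 2-fold lower. In the other eligible cells, with sums of 119251738 and 56699600 UMIs, the shares were 9.67% and 4.76%. With 7 cells at E9.5 most of these folds are within counting error: of 7822 genes with 50 or more UMIs, 261 had a 95% counting interval wholly above 0 and 441 wholly below. The intervals are not adjusted for the number of genes, so some would leave out 0 by counting error alone. Among the 8 genes named as lower at E10.5, Msc went from 166 to 20.3 CPM (log2 -3.03, interval -3.71 to -2.29), and in other eligible cells from 24.1 to 19.8. Nrg1 (neuregulin 1) went from 79.2 to 7.25 CPM, Ntrk2 from 87.2 to 12.6, Ramp2 from 103 to 15.2 and Rxrg from 63.4 to 9.55. Nrg1 and Rxrg were also lower at E10.5 in the other eligible cells, with log2 values of -2.21 and -1.75. Lhx2 (55.5 to 9.55), Lin28a (55.5 to 10.4) and Gm5611 (277 to 10.6) had similar differences in the other eligible cells, with log2 values of -2.31, -2.66 and -4.73 there. For Msc, Ntrk2 and Ramp2 the log2 values in the other eligible cells were -0.28, 0.30 and -0.25. The difference between the 2 kinds of cells was not tested.

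A gene with no UMI in the E9.5 members has no ratio and could not be named as higher at E10.5. Of 813 such genes with 50 or more UMIs, 64 had an interval wholly above 0. The 8 genes that were named included several that differed throughout the later library. Hbb-y went from 23.8 to 15013 CPM, Hba-x from 7.92 to 4909 and Mt1 from 7.92 to 245, and all 3 were also higher at E10.5 in other eligible cells, as were mt-Atp8 and Gm10320. Col3a1, a fibrillar collagen gene, went from 1 UMI (7.92 CPM) to 142 CPM, log2 4.16 with an interval of 1.68 to 9.47, and in other eligible cells from 75.9 to 171. Arg1 (arginase) went from 1 UMI to 115 CPM in members and from 140 down to 35.7 CPM in other eligible cells. Ybx3 went from 1 UMI to 133 CPM, and from 54.1 to 91.9 in the other cells. Each E9.5 level in members for these 3 genes rests on 1 UMI. Their intervals cover counting error only, not the spread between cells, embryos or libraries, so they set neither the size nor the direction of a stage difference.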

How the data were processed

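Reads of 4 single-cell libraries (10x 3' v2) were aligned by the authors to mm10 with Cell Ranger 3.1.0, per the labels, and the deposited matrices hold raw UMI counts of 27998 genes. Totals ran from 74920880 to 168407965 UMIs per library. Members, lists and tests were chosen with earlier results of these data known. Cells with 1000 or more genes and at most 10% mitochondrial UMIs were kept. The rule requires co-detection, so detection depth enters it. Counts were summed per library and kind of cell and tested with edgeR 4.0.16 (TMM, filterByExpr, quasi-likelihood test, library block, Benjamini-Hochberg). DESeq2 1.42.0 was an alternative. The 9 genes of the rule were not tested. As each stage is 1 library, p-values do not measure spread between embryos. Named genes were, of the called genes at 20 CPM or more in the higher kind in both libraries and with the same direction in both, the 15 highest and 10 lowest (6 and 6 for the single-gene comparisons) and, between stages, 8 rising and 8 falling. Each list's called genes were named too, but results on some genes are not reported here, although counts include them. Clusters used scanpy 1.11.5 (2000 variable genes, 50 components, 15 neighbours, Leiden resolution 1; for members alone 10 components and resolution 0.5). Doublets were kept, and removed in an alternative. On simulated sums for the comparison with other eligible cells (13906 genes), edgeR recovered 65 of 100 genes changed 2-fold and 100 of 100 changed 4-fold. Of its 186 calls there, 21 were false. For Moxd1-only cells 53 of the 100 genes changed 2-fold were recovered, and 15 of 168 calls were false. For Shox2-only cells 60 of 100 were recovered, and 26 of 186 calls were false. In each comparison the false share was above the adjusted p threshold of 0.05. The simulated libraries shared the same profile and the same dispersion for every gene, with no difference between stages. The simulation therefore does not show how the test behaves on the real sums. Cells thinned to 8000 UMIs were a further alternative, in which 819 E10.5 cells and 251 E9.5 cells were too shallow. No sequence is reported.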

Additional observations from a re-analysis of the deposited data

Results flagged for a closer look

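The rule was also met in a library outside the late stages. At E8.25, 16 of 2954 retained cells held both genes, a share of 0.542% (0.31 to 0.878). A count of 0 would allow up to 0.102%, which any count above 3 exceeds. Independent detection would give 2.83 such cells among the 2556 eligible ones. None of the 16 held 2 or more UMIs of both genes, and 6 held 1 of each. After thinning to 8000 UMIs, 3 of 2946 cells remained. In the 325 haemoglobin-rich E8.25 cells no Moxd1 UMI and 2 cells with Shox2 were found, at a median of 52603 UMIs against 26207.5 in the 16 cells. No comparison of expression was run on them.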

How the results depend on the processing

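Shares are of the genes tested. Against other eligible cells (2.59% higher, 3.51% lower), DESeq2 called 0.265% and 0.381%, edgeR without the library block 0% and 0.00725% (642 genes at an unadjusted p under 0.05), and thinning to 8000 UMIs 1.59% and 1.42%. Against Moxd1-only cells (0.834% and 0.55%), DESeq2 called 0% and 0.00948%, no block 0% and 0% (157 genes at an unadjusted p under 0.05), thinning 0.17% and 0.196%, and doublet removal gave 1.04% lower, with 50 of the 58 genes shared. Against Shox2-only cells (0.827% and 1.29%), DESeq2 called 0.0307% and 0.138%, no block 0% and 0% (264 at an unadjusted p under 0.05), and thinning 0.129% and 0.375%. With DESeq2 size factors, no filter, 2 or more UMIs of each gene or no haemoglobin-rich cells (added after seeing the data), the numbers of called genes stayed within 1.5 times. A fit on 1 library has no residual degrees of freedom and gives a value with no test. The naming rule required 1 direction in both libraries, so leaving out either library could not turn a named gene. Without haemoglobin-rich cells Hba-a1 (0.0191) and Hba-x (0.0797) changed sign and Hbb-bh1 (-0.0444) was no longer called. With 2 or more UMIs of each gene members were 0.0494% of E9.5 and 1.75% of E10.5 cells, with thinning 2.84% at E10.5, and without haemoglobin-rich cells 4.69%. The cluster with most members held 36.9% of E10.5 members at resolution 0.5, 41.7% at resolution 2.0 and 57.1% with seed 2, and 85.7% of the 7 E9.5 members at resolution 0.5. The causes were not tested. No paired analysis was possible because each stage has 1 library and the groups share only replicate number 1.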
